A study of Mus musculus with 13 samples.

Results

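The mRNAs of the oxidative phosphorylation (OXPHOS) subunits were examined in Lin-cKit+ bone marrow cells, the fraction without mature lineage markers that holds the hematopoietic stem and progenitor cells (HSPCs). Members were the protein-coding genes of the GENCODE M21 annotation whose symbols follow the naming of the subunits: Nduf genes of the a, b, c, s and v series, Sdha to Sdhd, the Uqcr genes and Cyc1, Cox genes of the series 4 to 8 with a letter from a to c, the Atp5 genes, and the protein-coding genes of the mitochondrial genome. This rule found 97 of the 54838 gene IDs in the count table, or of its 21998 protein-coding genes. Of the members, 84 are nuclear and 13 are encoded by the mitochondrial genome. Complex I holds 42 of them, complex II 4, complex III 10, complex IV 21 and complex V 20. Ndufa4, which was named for complex I but is known as a subunit of complex IV, and its paralog Ndufa4l2 were counted with complex IV. The naming rule does not take Cox4i1, Ndufab1 and the electron carrier Cycs, which are given with the other genes of the pathway.

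The study compared mice in which the interferon-inducible Mx1-Cre transgene switches on mutant p53, mutant Nras or the pair of them at their endogenous loci, to ask how the mutations act together in acute myeloid leukemia. Control mice carried Mx1-Cre alone (n = 3), p53mut mice Mx1-Cre with p53 R172H/+ (n = 3), NrasG12D mice Mx1-Cre with a heterozygous Nras allele (n = 3), and NPmut mice Mx1-Cre with both p53 R172H/+ and Nras G12D/+ (n = 4). All mice therefore carried Mx1-Cre, which recombines in many interferon-responsive cells outside the blood as well. Control, p53mut and NrasG12D mice were age-matched and had been given pI-pC, a double-stranded RNA that induces interferon, as 3 injections of 100 μg from an age of about 6 weeks, whereas the NPmut mice had no such treatment and were moribund. Genotype, pI-pC and disease stage thus cannot be told apart in any comparison with NPmut mice. The genotype field of the NrasG12D mice reads G21D where their titles read G12D, and the titles were followed. Each library came from the total RNA of cells sorted from the marrow of 1 mouse.

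Oxidative phosphorylation is the set of reactions by which mitochondria turn the electrons of nutrients into ATP. Complexes I and II take electrons from NADH and succinate, complex III passes them to cytochrome c, complex IV hands them to oxygen, and complex V uses the proton gradient that complexes I, III and IV build to make ATP. Complexes I, III, IV and V are mosaics of subunits from both genomes, whereas complex II is wholly nuclear, so the output of the 2 genomes has to be matched for assembly. Quiescent HSCs are known for low mitochondrial respiration and a reliance on glycolysis, and proliferating progenitors and many acute myeloid leukemias for a greater use of OXPHOS.

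Nuclear OXPHOS genes have no common promoter element, but binding motifs of NRF1, GABPA (an ETS factor) and YY1 are known in some of them. RefSeq promoters of the GRCm38.p6 build, from 250 bases before to 50 after the start, were found for 68 of the 83 nuclear symbols, in 73 promoters. The NRF1 motif, a palindrome that is spelled out by the capitals of Uqcrc1 and was searched on both strands like all others, was in 5 of the 73 (6.85%, against 0.971% of all 32851 promoters), and the YY1 motif, spelled out by the capitals of Ndufs7, in 4 (5.48% against 0.633%). The ETS motif CCGGAAGT was in 5 (6.85% against 3.89%). CCAAT was in 42.5% of the member promoters and 37.4% of all, GGGCGG in 39.7% and 35.7%, and TATAAA in 10.96% and 13.6%. The following 4 promoters are printed on their coding strand with the NRF1, ETS or YY1 match in capitals. Cox7a2l is shown because it is a nuclear member that rose in NPmut HSPCs, and its window holds none of the 3 motifs. Uqcrc1, Uqcr11 and Ndufs7 show the NRF1, the ETS and the YY1 match, in that order.
Cox7a2l, chr17:83514284-83514583, minus strand: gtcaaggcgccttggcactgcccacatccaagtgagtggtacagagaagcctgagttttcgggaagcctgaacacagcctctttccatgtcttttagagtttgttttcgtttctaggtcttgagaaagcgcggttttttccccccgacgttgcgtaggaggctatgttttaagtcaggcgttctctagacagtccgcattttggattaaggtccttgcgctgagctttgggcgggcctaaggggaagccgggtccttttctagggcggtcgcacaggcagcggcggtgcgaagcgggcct
Uqcrc1, chr9:108936398-108936697, plus strand: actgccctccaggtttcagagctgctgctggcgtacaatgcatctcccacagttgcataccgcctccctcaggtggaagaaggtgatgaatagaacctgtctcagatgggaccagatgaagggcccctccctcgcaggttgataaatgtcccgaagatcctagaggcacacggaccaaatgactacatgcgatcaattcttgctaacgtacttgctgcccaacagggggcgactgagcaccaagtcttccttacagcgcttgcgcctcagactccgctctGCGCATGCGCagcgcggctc
Uqcr11, chr10:80406772-80407071, minus strand: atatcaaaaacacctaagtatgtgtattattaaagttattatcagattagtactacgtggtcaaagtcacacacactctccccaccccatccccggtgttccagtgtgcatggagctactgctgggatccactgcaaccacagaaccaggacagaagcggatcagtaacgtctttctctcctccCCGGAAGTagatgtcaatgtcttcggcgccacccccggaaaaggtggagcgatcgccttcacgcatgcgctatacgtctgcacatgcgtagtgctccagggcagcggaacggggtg
Ndufs7, chr10:80249199-80249498, plus strand: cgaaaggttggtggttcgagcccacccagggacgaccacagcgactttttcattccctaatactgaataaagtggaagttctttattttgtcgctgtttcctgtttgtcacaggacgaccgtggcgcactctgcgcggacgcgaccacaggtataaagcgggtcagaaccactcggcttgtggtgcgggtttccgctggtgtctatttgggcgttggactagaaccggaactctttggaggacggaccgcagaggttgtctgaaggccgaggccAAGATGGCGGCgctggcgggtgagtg

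The libraries held 12576174 to 29124022 counts on genes, with both extremes in the NPmut group (mouse 4 the lowest and mouse 2 the highest), and 5 of the 13 came from male mice by their Y-linked genes. Kit, Cd34 and Ptprc, which the sorted cells should express, summed to 917 to 1100 CPM in control and 792 to 978 CPM in NPmut libraries, and Kit itself fell in NPmut HSPCs from 540 ± 31.7 to 372 ± 66.4 CPM (adjusted p = 0.0322). CPM are counts scaled to a common library size with TMM factors. Marker genes of cell types differed between NPmut and control libraries, where 5.38% of all genes tested rose and 5.54% fell. All 6 tested megakaryocyte genes and 7 of 8 HSC genes fell against control, and 6 of 9 monocyte genes rose. Their summed levels were 127 to 202 against 13.8 to 70.0 CPM for megakaryocyte genes, 160 to 257 against 31.9 to 95.9 CPM for HSC genes, and 586 to 667 against 1625 to 2370 CPM for monocyte genes, control against NPmut. Erythroid genes summed to 1006 to 1487 CPM in control and 353 to 888 CPM in NPmut libraries (3 of 11 tested fell), and stromal and endothelial genes to 83.8 to 103 CPM and 125 to 156 CPM (of 3 tested Pecam1 rose and Col1a2 fell). Neutrophil and lymphoid sums overlapped between the groups. In bulk RNA, a change in the cells present and a change in RNA per cell cannot be told apart. Reads on olfactory and vomeronasal receptor genes, a measure of background, came to 103 to 191 CPM in control, 58.9 to 138 in p53mut, 37.7 to 44.4 in NrasG12D and 17.5 to 57.3 in NPmut libraries. The part that these shifts have in the results on OXPHOS genes was not tested. Fits with background reads as a term are given beside the results. These reads did not overlap between NPmut and control or p53mut libraries, nor between NrasG12D and control libraries. In those comparisons the fits cannot separate background from group.

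The OXPHOS mRNAs were abundant. Per length, the highest mean levels over the 13 libraries were in mitochondrial genes: mt-Co1, the catalytic subunit of complex IV, at 1704 RPKM (counts scaled by exonic length and library total), mt-Cytb, the cytochrome b of complex III, at 1578 RPKM, and the complex I genes mt-Nd1 at 1565 and mt-Nd5 at 1222 RPKM. They were followed by mt-Nd2 (597 RPKM), mt-Nd4 (408 RPKM), mt-Atp6 (304 RPKM) and mt-Nd6 (247 RPKM). Among nuclear members the highest were 2 subunits of the catalytic core of ATP synthase, Atp5a1 at 249 and Atp5b at 225 RPKM. In the other complexes the leading nuclear genes were Cox8a of complex IV (119 RPKM), Ndufb10 of the membrane arm of complex I (78.6 RPKM), Sdha, the flavoprotein of complex II (71.6 RPKM), and Uqcr10 of complex III (63.0 RPKM).

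**Figure D1:**
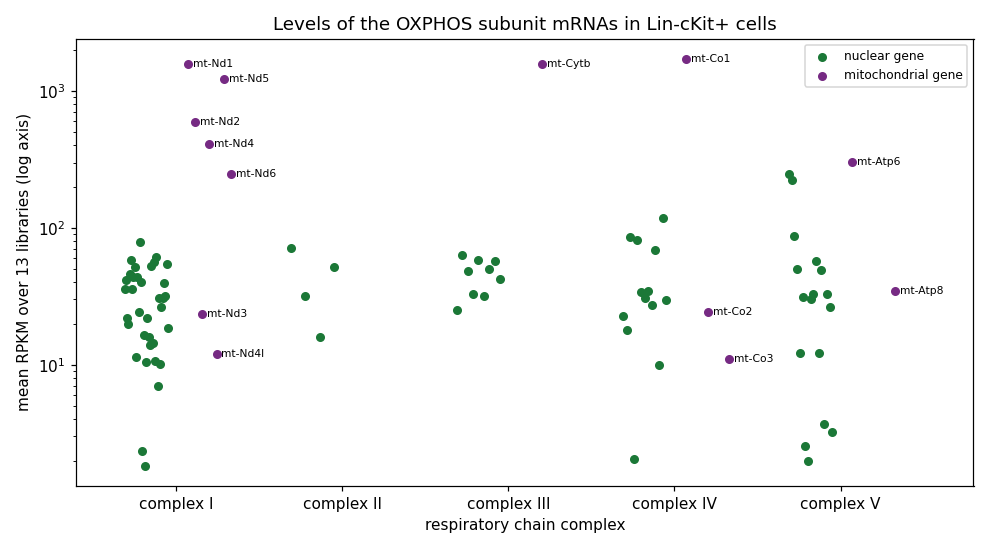
Mean level of each OXPHOS subunit mRNA over the 13 libraries in RPKM on a log axis, by complex, with nuclear genes in green and mitochondrial genes in purple (named). The 6 members with at most 11 counts in any library are left out; mitochondrial genes spread from 10.98 RPKM (mt-Co3) to 1704 RPKM (mt-Co1), around and above the nuclear genes.

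The mitochondrial genes did not share 1 level. mt-Atp8 (34.6 RPKM), mt-Co2 (24.2 RPKM), mt-Nd3 (23.5 RPKM), mt-Nd4l (11.9 RPKM) and mt-Co3 (10.98 RPKM) were listed far below the others, although mt-Co1, mt-Co2 and mt-Co3 together form the core of complex IV. All of these except mt-Atp8 share nearly their whole sequence with copies of mitochondrial DNA, but so does mt-Atp6. Of all 50-base windows of mt-Co2, 100.0% also occur in another annotated gene, and the shares are 99.9% for mt-Co3, 99.5% for mt-Atp6, 98.8% for mt-Nd4l and 98.0% for mt-Nd3, then 62.2% for mt-Nd4 and 51.1% for mt-Co1. mt-Nd2 (8.19%) and mt-Nd5 (7.61%) share little, and mt-Nd1, mt-Cytb, mt-Nd6 and mt-Atp8 share none. Of the 84 nuclear members, 40 share none and 1 shares over 50%. How reads that fit 2 places were counted is not given in the sources used here, so the counts of the 7 mitochondrial genes over 50% are uncertain.

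Several isoforms that are known from muscle or testis were at or near 0. Cox7a1 and Cox8b, the heart and muscle isoforms of 2 complex IV subunits, had at most 11 and 2 counts in any library, the testis isoforms Cox7b2 and Cox8c at most 2 each, and Ndufa4l2, a hypoxia-responsive paralog, at most 7. The second gene ID of Atp5o, ENSMUSG00000116933, had 0 counts throughout. These 6 members did not pass edgeR's filter on low counts, which left 91 tested members, 78 nuclear and 13 mitochondrial, among the 17795 genes tested. Of the other tissue isoforms, the muscle isoform Cox6a2 stood at 2.07 RPKM against 85.2 for the general isoform Cox6a1, whereas the testis isoform Cox6b2 reached 34.2 RPKM against 81.6 for Cox6b1.

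Summed over all members of a genome, nuclear OXPHOS mRNA differed little between the groups apart from 1 mouse. The 84 nuclear genes summed to 5953, 6636 and 5753 CPM in control, 6373, 6333 and 5817 CPM in p53mut, 5625, 5969 and 5629 CPM in NrasG12D, and 5886, 9393, 6478 and 5405 CPM in NPmut mice 1 to 4. NPmut mouse 2 was far above all others, NPmut mice 1 and 3 lay within the control range, and NPmut mouse 4 was the lowest of all 13. The 13 mitochondrial genes summed to 8995 to 10813 CPM in control, 10219 to 10677 CPM in p53mut, 7631 to 9232 CPM in NrasG12D, and 10076, 11541, 11059 and 7235 CPM in NPmut mice 1 to 4. NPmut mouse 4 was the lowest of all 13 and NPmut mouse 2 the highest. As a share of all counts, mitochondrial OXPHOS mRNA came to 1.02% ± 0.0666 (SD, n = 3) in control, 1.06% ± 0.0402 (n = 3) in p53mut, 0.866% ± 0.0808 (n = 3) in NrasG12D and 0.952% ± 0.188 (n = 4) in NPmut libraries. The 3 NrasG12D values (0.772% to 0.912%) lay below the 3 control values (0.960% to 1.09%), and the NPmut values ran from 0.678% to 1.11%.

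**Figure D2:**
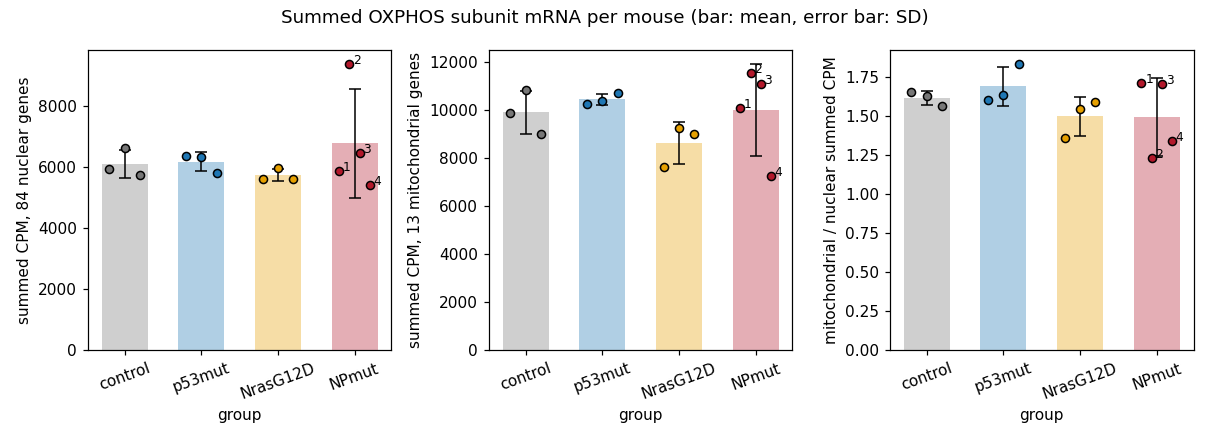
Summed CPM of the 84 nuclear and the 13 mitochondrial OXPHOS genes and the ratio of the 2 sums in each mouse, by group; bars are means, error bars SDs, points mice, and the numbers mark the NPmut mice. NPmut mouse 2 has the highest nuclear sum (9393 CPM) and the lowest ratio (1.23), and NPmut mouse 4 the lowest mitochondrial sum (7235 CPM).

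The balance of the 2 genomes, taken as mitochondrial over nuclear CPM, was 1.62 ± 0.0471 (n = 3) in control, 1.69 ± 0.125 (n = 3) in p53mut, 1.499 ± 0.125 (n = 3) in NrasG12D and 1.497 ± 0.250 (n = 4) in NPmut libraries. In NPmut mice 1 to 4 the ratio was 1.71, 1.23, 1.71 and 1.34, so that 2 mice lay above and 2 below the control range of 1.56 to 1.65. Mice 2 and 4 reached their low ratios in different ways, mouse 2 with a high nuclear and mouse 4 with a low mitochondrial sum. The nuclear sum of mouse 4 was also the lowest of all libraries. Each nuclear complex followed the total: in NPmut mouse 2 the nuclear genes summed to 2724 CPM for complex I, 636 for complex II, 1069 for complex III, 985 for complex IV and 3978 for complex V. The highest value of any other library was 1879, 506, 761, 685 and 2810 CPM in the same order.

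NPmut HSPCs were next compared with control HSPCs, in 1 edgeR quasi-likelihood model of all 13 libraries. A gene was called at an adjusted p-value under 0.05 (Benjamini-Hochberg over all genes tested), and a DEG also had a fold change of at least 2. Of the 91 members, 2 rose, Cox6a2 and Cox7a2l, and 1 fell, mt-Nd6, whereas 5.38% of all genes tested rose and 5.54% fell. Cox6a2 was also a DEG, against 6.01% of all genes. At an unadjusted p-value under 0.05, 7 members were higher and 2 lower, against 13% and 12.7% of all genes. In all, 3 of 91 members were called, against 10.9% of all genes in either direction.

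mt-Nd6 encodes a membrane subunit of complex I and is the only OXPHOS gene on the light-strand transcript of the mitochondrial genome (chrM, 13552 to 14070, minus strand), so that it comes from a different precursor than the other 12. Its level was 134, 161 and 145 CPM in control, 141, 126 and 142 CPM in p53mut, 159, 140 and 125 CPM in NrasG12D, and 95.01, 87.6, 107 and 97.3 CPM in NPmut mice. All 4 NPmut mice lay below all 9 others. In the edgeR model its log2 fold changes were -0.60 against control (SE 0.108, adjusted p = 0.00316), -0.55 against NrasG12D (SE 0.108, adjusted p = 0.00660) and -0.49 against p53mut (SE 0.108, adjusted p = 0.00997). These comparisons share the NPmut libraries. Without each of the 13 libraries in turn, mt-Nd6 remained called in all 13 fits against control and against NrasG12D. Against p53mut it was called in 11 of 13, with adjusted p-values of 0.0510 without p53mut mouse 1 and 0.0568 without p53mut mouse 3. With background reads as a term of the model its adjusted p-value was 0.103 against control, at a log2 fold change of -0.55, and 0.0981 against p53mut, and with only the compared groups it was 0.0501 against p53mut.

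The other complex I genes of the mitochondrial genome were not called against control, and their difference from mt-Nd6 was not tested. mt-Nd5, its neighbor on the opposite strand, with which it shares 14 exonic bases, stood at 2280, 2530 and 2024 CPM in control and 2444, 2254, 2655 and 1501 CPM in NPmut mice (log2 fold change -0.04, SE 0.168, adjusted p = 0.902). Per 100 counts of mt-Nd5, mt-Nd6 had 5.89 to 7.15 in control, 5.18 to 6.18 in p53mut and 5.83 to 8.93 in NrasG12D libraries, and 3.89, 3.89, 4.05 and 6.48 in NPmut mice 1 to 4. On this scale NPmut mice 1 to 3 lay below all 9 other libraries, and mouse 4, in which mt-Nd5 itself was low, lay among them. The libraries came from a stranded kit, but the strand setting of the counting is not given in the sources used here. In control and NPmut mice, mt-Nd1 (log2 fold change 0.18), mt-Nd2 (-0.27), mt-Nd4 (-0.19) and mt-Nd4l (-0.51) had adjusted p-values of 0.292 to 0.611. mt-Nd3, with 5.40 to 7.85 CPM in control and 8.95, 17.2, 8.42 and 7.55 CPM in NPmut mice, was not called either (log2 fold change 0.63, SE 0.282, adjusted p = 0.178).

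Cox7a2l encodes a factor known for binding complex III to complex IV in respiratory supercomplexes. Whether its protein does so in these mice was not examined. It stood at 35.8, 31.6 and 34.0 CPM in control, 40.1, 36.2 and 40.6 CPM in p53mut, 37.4, 41.1 and 38.6 CPM in NrasG12D, and 41.5, 60.4, 46.7 and 41.7 CPM in NPmut mice. All 4 NPmut values lay above all 9 others, the gap being narrow for mice 1 and 4. The log2 fold change against control was 0.49 (SE 0.132, adjusted p = 0.0259), a 1.41-fold rise, and 0.35 without NPmut mouse 2 (adjusted p = 0.0320). The call was lost in 3 of 13 fits with a library left out, those without control mouse 1, 2 or 3 (adjusted p = 0.0504, 0.109 and 0.0869), and also when libraries were scaled by their totals alone (adjusted p = 0.0676), with only the compared groups (0.103) and with background reads as a term (0.0781). Against p53mut and NrasG12D the log2 fold change was 0.29 each, with adjusted p-values of 0.192 and 0.193. Of the 50-base windows of Cox7a2l, 17.7% are shared with other genes.

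Cox6a2 encodes the heart and muscle isoform of a complex IV subunit. It had 0.805, 0.680 and 0.204 CPM in control, 1.33, 0.590 and 0.695 CPM in p53mut, 0.868, 1.57 and 1.17 CPM in NrasG12D, and 3.18, 3.51, 3.43 and 0.594 CPM in NPmut mice, from 4 to 91 counts per library. NPmut mice 1 to 3 were above all other libraries and mouse 4 was within the control range. The log2 fold change against control was 2.27 (SE 0.591, adjusted p = 0.0229), a 4.84-fold rise, and adjusted p-values rose to 0.0632, 0.110 and 0.0527 without control mouse 2, control mouse 3 or NPmut mouse 1. The call was also lost with only the compared groups (adjusted p = 0.0787) and with background reads as a term (0.0561). Of 6 marker genes of striated muscle, 2 passed the filter (Acta1 and Ckm) and 0 were called, and their summed level was 1.63 to 2.64 CPM in control, 1.22 to 2.80 CPM in p53mut, 0.721 to 1.55 CPM in NrasG12D and 3.32 to 3.59 CPM in NPmut libraries. NPmut mouse 4, in which Cox6a2 was low, had a marker sum of 3.48 CPM. Mb and Myl1, which did not pass the filter, were near 0, with means of 0.00964 and 0.0134 CPM in NPmut mice. The sum of the 6 markers was higher in all 4 NPmut libraries than in any other library. The part of these markers in the rise of Cox6a2 was not tested. No list of dendritic cell markers was set beside it, so other sources among blood cells were not examined. Cox6a2 shares 70 exonic bases with Itgad on the opposite strand, which had 3 to 20 counts per library. Its general counterpart Cox6a1 was not called, and per 100 counts of Cox6a1 there were 0.330 to 1.399 of Cox6a2 in control and 6.47, 4.09, 5.87 and 1.49 in NPmut mice.

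mt-Atp6, the proton channel subunit of complex V, stood at 161, 187 and 155 CPM in control, 130, 107 and 205 CPM in p53mut, 170, 159 and 173 CPM in NrasG12D, and 386, 433, 313 and 143 CPM in NPmut mice. Mice 1 to 3 were above all 9 other libraries, and mouse 4 was below all control mice. It rose against p53mut as a DEG (log2 fold change 1.115, SE 0.307, adjusted p = 0.0374), where 4.81% of all genes rose, 5.14% fell and 5.24% were DEGs. Against control the log2 fold change was 0.93 (adjusted p = 0.0703) and against NrasG12D 0.93 (adjusted p = 0.0793). The DESeq2 Wald test called mt-Atp6 higher against both, at a log2 fold change of 0.92 each (adjusted p = 0.0156 and 0.0121). Without NPmut mouse 4 the edgeR log2 fold change against control was 1.16 and called (adjusted p = 0.00240). The edgeR call against p53mut was lost in 9 of the 13 fits with a library left out, with adjusted p-values of up to 0.139. That call was also lost with library totals (adjusted p = 0.0545), a filter of at least 1 count (0.155), only the compared groups (0.125) and background reads as a term (0.137). The pseudogene Gm10925 on chromosome 1 (24613974 to 24614651, minus strand) shares nearly all windows of mt-Atp6 and moved in the same mice, with 234 to 303 CPM in control, 287 to 319 CPM in p53mut, 234 to 384 CPM in NrasG12D, and 565, 525, 427 and 170 CPM in NPmut mice 1 to 4. With the counts of both added, the log2 fold change against p53mut was 0.72 (adjusted p = 0.137) and against control 0.76 (adjusted p = 0.107).

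**Figure D3:**
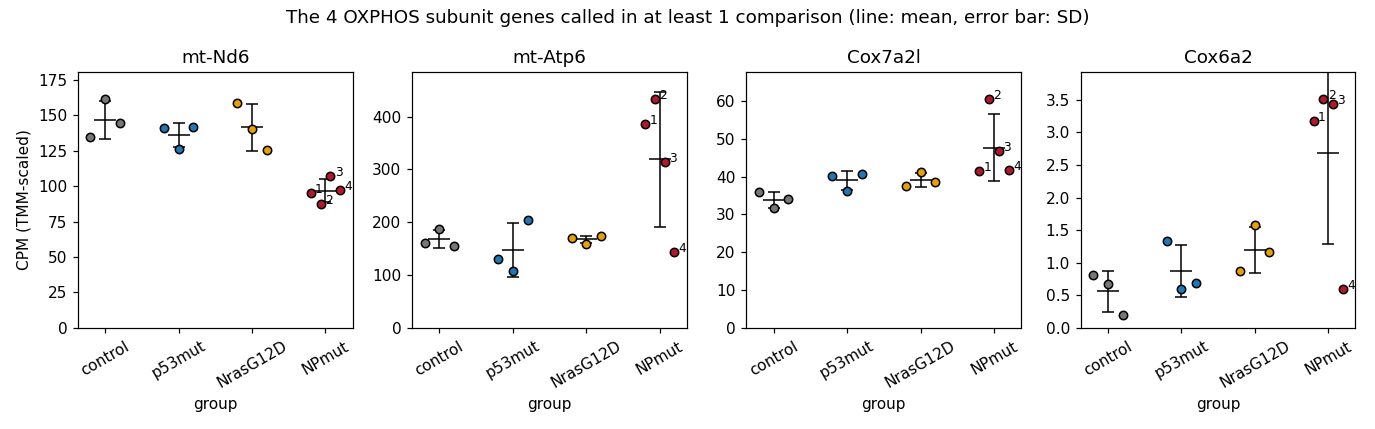
CPM of the 4 OXPHOS subunit genes called in at least 1 comparison, per mouse and group, with the mean (line) and SD (error bar) of each group, each panel on its own linear axis from 0; the numbers mark the NPmut mice. For mt-Nd6 all 4 NPmut mice lie below the others, for Cox7a2l all 4 lie above, and for mt-Atp6 and Cox6a2 mouse 4 is apart from mice 1 to 3.

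Among the remaining members no rise or fall passed the test against control. Complex I has 35 nuclear members tested, with a median log2 fold change of 0.16, of which 30 were positive. Its 2 with the smallest adjusted p-values were the accessory subunits Ndufv3, with 52.6 to 56.0 CPM in control and 60.8, 86.2, 62.6 and 62.1 CPM in NPmut mice (log2 fold change 0.32, adjusted p = 0.133), and Ndufb11, with 28.7 to 37.1 CPM in control and 37.9, 64.4, 38.5 and 40.0 CPM in NPmut mice (0.44, adjusted p = 0.158). Both genes had all NPmut mice above all control mice, which held for 4 members and for 10.4% of all genes, and NPmut mouse 2 was the highest in both. Every NPmut mouse was below all controls for 2 members, against 11.5% of all genes.

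In complex II, Sdhb, the iron-sulfur subunit, had 64.8, 71.5 and 58.5 CPM in control and 74.4, 117, 80.9 and 56.4 CPM in NPmut mice (log2 fold change 0.34, adjusted p = 0.247). Sdha (-0.01) and the membrane anchor Sdhc (0.11) had adjusted p-values of 0.956 and 0.667. In complex III, the Rieske iron-sulfur protein Uqcrfs1 (0.35, adjusted p = 0.1996) and the small subunit Uqcrq (0.38, adjusted p = 0.257) were the nearest to the threshold. Uqcrq stood at 74.1, 84.1 and 65.0 CPM in control and 77.7, 147, 84.03 and 79.0 CPM in NPmut mice, so that its difference rested on mouse 2. In complex V, Atp5h of the peripheral stalk (0.39, adjusted p = 0.142) and Atp5l of the membrane part (0.40, adjusted p = 0.199) came first. The abundant core subunit Atp5a1 stood at 678 to 800 CPM in control and 770, 1134, 844 and 758 CPM in NPmut mice (0.26, adjusted p = 0.258). In complex IV, Cox6b2 was the nuclear member with the lowest log2 fold change (-0.40, adjusted p = 0.126), and mt-Co1 (0.13), mt-Co2 (-0.09) and mt-Co3 (-0.14) had adjusted p-values of 0.609 to 0.938. The log2 fold change was -0.16 for mt-Cytb (adjusted p = 0.579) and 0.28 for mt-Atp8, which shares 43 exonic bases with mt-Atp6. Of the most abundant nuclear genes of their complexes, Ndufb10 (0.20), Uqcr10 (-0.01) and Cox8a (0.17) were not called either.

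Counted over all members without regard to the test, 66 of 78 nuclear members had a positive log2 fold change in NPmut against control HSPCs, and 5 of 13 mitochondrial ones, where 51.3% of all genes did. The median was 0.15 for nuclear members, -0.09 for mitochondrial members and 0.01 for all genes. The nuclear medians were 0.16 for complex I, 0.11 for complex II, 0.10 for complex III, 0.15 for complex IV and 0.22 for complex V. The mitochondrial median was -0.19 for complex I and 0.61 for the 2 genes of complex V. The nuclear tilt rested on NPmut mouse 2: without it, 22 of 78 nuclear members were positive, with a median of -0.08, and the mitochondrial median was -0.24. In that fit 1 further member fell, the complex I subunit Ndufa5 (-0.48, adjusted p = 0.0202). Without NPmut mouse 4 the medians were 0.25 and 0.10, and 4 members rose, Sdhb, Cox6a2, Cox7a2l and mt-Atp6.

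NPmut mouse 2 was the highest of the 4 NPmut mice in 75 of the 78 nuclear and 7 of the 13 mitochondrial members, against 36.8% of all genes. It was the lowest in 0 nuclear members and 1 mitochondrial member, against 34% of all genes. NPmut mouse 4 was the lowest in 50 nuclear and 11 mitochondrial members, against 31.2% of all genes. Measured against the control mean, the median log2 CPM difference of the nuclear members was -0.06, 0.69, 0.04 and -0.21 in NPmut mice 1 to 4, and that of the mitochondrial members -0.10, 0.29, 0.02 and -0.61. In the 9 other libraries these medians ran from -0.20 to 0.10 and from -0.42 to 0.14. Ribosomal protein genes were also high in mouse 2. The median of its mitochondrial ribosomal protein genes was 0.46 and that of its cytosolic ribosomal protein genes 0.71, and the latter summed to 17944 CPM, against 9651 to 12234 CPM in the other 12 libraries. It was also the most deeply sequenced library, had the lowest TMM factor (0.892), the smallest share of counts on protein-coding genes (69.9%) and the largest share on mitochondrial ribosomal RNA (11.3%, against 5.87% to 9.27% elsewhere). The part of these library features in its OXPHOS levels was not tested.

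**Figure D4:**
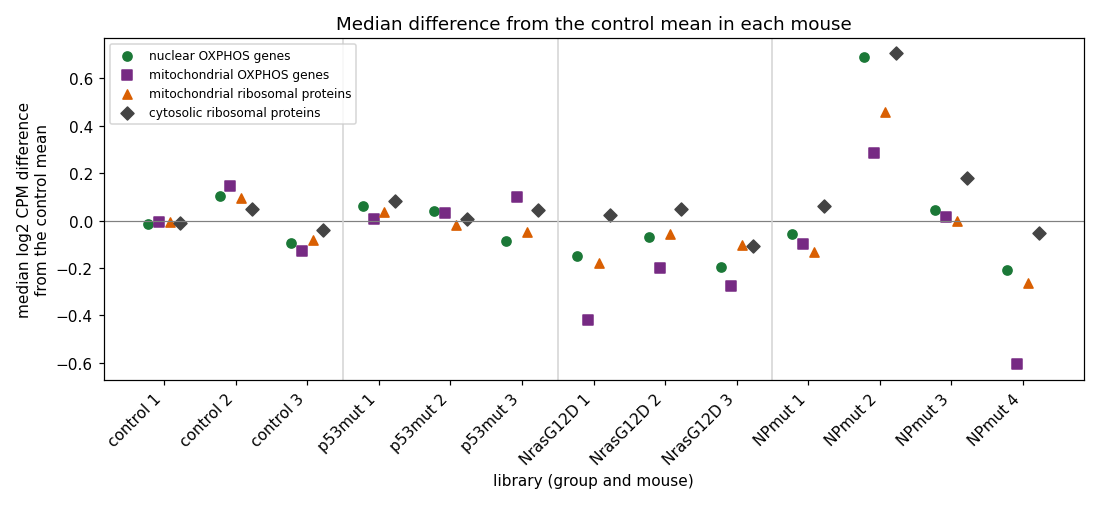
Median difference in log2 CPM from the control mean in each of the 13 mice, for the tested nuclear and mitochondrial OXPHOS genes and for the genes of mitochondrial and cytosolic ribosomal proteins; vertical lines separate the groups. NPmut mouse 2 is high in all 4 gene groups (0.69, 0.29, 0.46 and 0.71), and NPmut mouse 4 and the NrasG12D mice are low in the mitochondrial genes.

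In p53mut HSPCs the OXPHOS genes stayed close to control. Of the 91 members 0 were called, as were 0% of all genes, and 0 members had an unadjusted p-value under 0.05, against 2.33% of all genes (415). DESeq2 also called 0 members. Positive log2 fold changes were found in 48 members (50.3% of all genes), the median was 0.00 for nuclear and 0.02 for mitochondrial members, and the nuclear medians of the 5 complexes ran from -0.03 to 0.04. The smallest adjusted p-value of any member was 1.00, and Cox7a2l, with a log2 fold change of 0.21, was the only member with all p53mut mice above all controls (5.47% of all genes), whereas 2 had all below (5.71%). A block on the replicate number, over which control and p53mut mice were weakly correlated, left the count of called members at 0.

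In NrasG12D HSPCs, OXPHOS mRNAs were listed below control without any member passing the test. edgeR and DESeq2 each called 0 members, where edgeR called 0.00562% of all genes higher, and at an unadjusted p-value under 0.05 there were 4 members lower and 0 higher, against 4.18% and 5.05% of all genes. Of the 91 members 14 had a positive log2 fold change (13 of 78 nuclear and 1 of 13 mitochondrial), against 48.2% of all genes, and the median was -0.13 for nuclear and -0.32 for mitochondrial members, against -0.01 for all genes. Members measured in the same mice are not independent. Per mouse, the nuclear medians (-0.20 to -0.07) overlapped those of control mice (-0.10 to 0.10), and the mitochondrial ones (-0.42 to -0.20) lay below theirs (-0.13 to 0.14). Pooled over all groups, the SD of these per-mouse medians was 0.24 for nuclear and 0.23 for mitochondrial members. All 3 NrasG12D mice lay below all 3 control mice in 27 members (22 nuclear and 5 mitochondrial), against 10.2% of all genes, and above them in 2, Cox6a2 and Cox7a2l, against 10.9%. By complex, the nuclear medians were -0.13 for complex I, -0.08 for complex II, -0.18 for complex III, -0.18 for complex IV and -0.05 for complex V, and 0 of 9 nuclear complex III genes were positive. With background reads as a term of the model, the nuclear median turned to 0.30 and the mitochondrial median to 0.00. That fit cannot separate background from group, since these reads did not overlap between NrasG12D and control libraries. Under the other scalings both kept their sign.

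The 6 members of smallest adjusted p-value in NrasG12D HSPCs were Ndufb9, Uqcr11, mt-Nd4l, mt-Nd2, mt-Atp8 and mt-Cytb. Ndufb9, an accessory subunit of complex I, had 57.7, 66.8 and 51.5 CPM in control and 44.4, 41.1 and 41.3 CPM in NrasG12D mice (log2 fold change -0.47, SE 0.195, adjusted p = 0.467). Uqcr11, a small subunit of complex III whose promoter is printed above, had 32.4, 36.1 and 28.3 CPM in control and 25.1, 23.6 and 21.9 CPM in NrasG12D mice (-0.46, SE 0.190, adjusted p = 0.474). mt-Nd2 had 685, 758 and 623 CPM in control and 513, 579 and 509 CPM in NrasG12D mice (-0.37, SE 0.162, adjusted p = 0.511), and mt-Cytb had 2006, 2032 and 1765 CPM in control and 1374, 1632 and 1597 CPM in NrasG12D mice (-0.33, SE 0.168, adjusted p = 0.576). Each of these 4 genes separated the groups without overlap. mt-Nd4l, with 5.52, 8.46 and 2.09 CPM in control and 2.14, 2.03 and 1.55 CPM in NrasG12D mice (-1.48, SE 0.623, adjusted p = 0.487), did not. The differences of mt-Nd4l and mt-Atp8 (-1.57, SE 0.758, adjusted p = 0.565) were large but imprecise, at low counts.

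**Figure D5:**
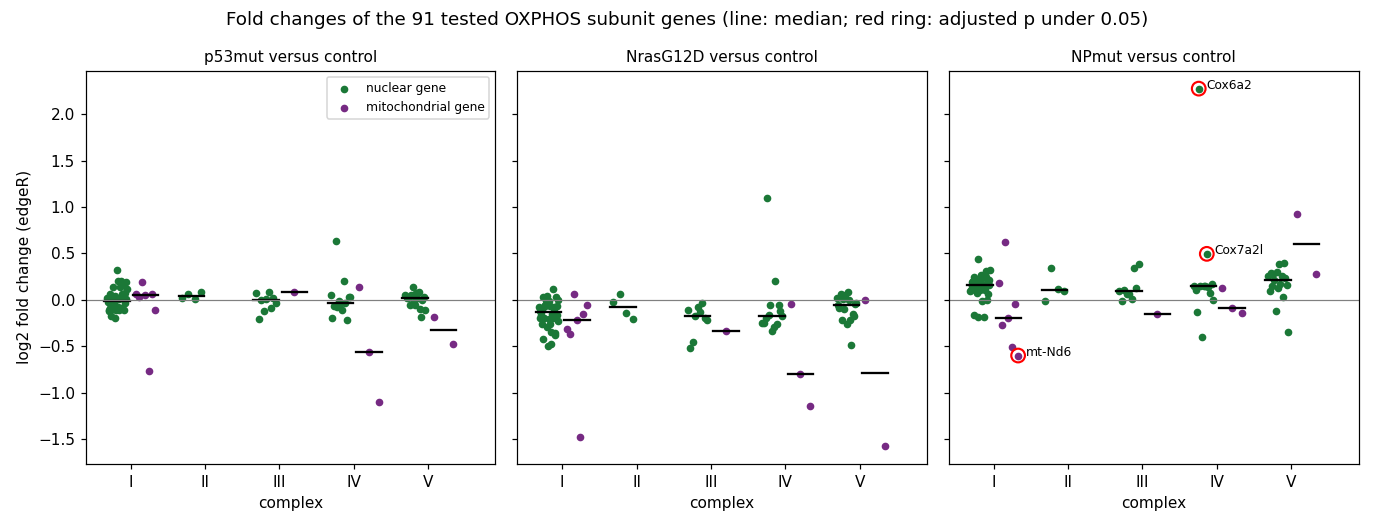
Log2 fold changes from edgeR of the 91 tested OXPHOS subunit genes against control, by complex, in p53mut, NrasG12D and NPmut HSPCs; green points are nuclear and purple points mitochondrial genes, black lines medians, and red rings genes called at an adjusted p-value under 0.05. In NrasG12D most points lie below 0 and 0 are ringed; in NPmut most nuclear points lie slightly above 0 and Cox6a2, Cox7a2l and mt-Nd6 are ringed.

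Against NrasG12D HSPCs, 86 of 91 members had a positive log2 fold change in NPmut HSPCs, against 53.9% of all genes. By edgeR 0 members rose and 1 fell, mt-Nd6, where 3.92% of all genes rose and 4.97% fell. The median was 0.31 for nuclear and 0.50 for mitochondrial members, against 0.04 for all genes, and 23 members were higher and 2 lower at an unadjusted p-value under 0.05, against 12.2% and 11.9% of all genes. DESeq2 called 6 members higher, Ndufs5, Uqcr11, Uqcrq, Atp5l, mt-Nd1 and mt-Atp6, and mt-Nd6 lower. Without NPmut mouse 2 the nuclear median fell to 0.06 and the mitochondrial one to 0.12, with 53 of 78 and 10 of 13 members positive. The control comparisons of both genotypes use the same control mice, and their nuclear medians were -0.13 for NrasG12D and 0.15 for NPmut.

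mt-Nd1 was the mitochondrial gene nearest to a call as higher than in NrasG12D. It stood at 1072, 1296 and 1228 CPM in NrasG12D and 1532, 2158, 1829 and 1268 CPM in NPmut mice (log2 fold change 0.50, SE 0.159, adjusted p = 0.0631), with NPmut mouse 4 within the NrasG12D range. Among nuclear genes, Uqcr11 had 25.1, 23.6 and 21.9 CPM in NrasG12D and 29.3, 49.1, 33.4 and 26.6 CPM in NPmut mice (0.56, SE 0.179, adjusted p = 0.0654). All 4 NPmut mice were above the NrasG12D mice in Uqcr11, as in 12 members, against 9.34% of all genes, and all were below them in 2 members, against 11.2%.

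Against p53mut HSPCs, mt-Atp6 rose and mt-Nd6 fell in NPmut HSPCs, as given above, and 0 of the 78 nuclear members were called. DESeq2 called 1 of them, Atp5l (log2 fold change 0.57, adjusted p = 0.0472). At an unadjusted p-value under 0.05, 5 members were higher and 2 lower, against 11.8% and 12.2% of all genes, and 3 members had all NPmut mice above and 3 all below the p53mut mice, against 9.1% and 10.5%. The nuclear median was 0.18 and the mitochondrial median 0.12, with 71 of 91 members positive against 53.3% of all genes. Without NPmut mouse 2 the medians were -0.07 for both, and mt-Nd2 fell (log2 fold change -0.42, adjusted p = 0.0416). The interaction, NPmut minus p53mut minus NrasG12D plus control on the log2 scale, asks whether NPmut HSPCs differ from the sum of the changes with each mutation alone. Only NPmut mice lacked pI-pC and were moribund, so it also holds these differences, which cannot be told apart from the mutations. Of the members 0 were called by edgeR and 0 by DESeq2, where 0.506% of all genes were positive calls and 1.23% negative ones, and 7 were positive and 1 negative at an unadjusted p-value under 0.05, against 7.54% and 8.52%. The median interaction was 0.30 for nuclear and 0.37 for mitochondrial members, against 0.05 for all genes, with 83 of 91 members positive against 54%. They were 0.07 and 0.03 without NPmut mouse 2. The nuclear member with the smallest adjusted p-value was Atp5l, at 0.74 (SE 0.277, adjusted p = 0.1999), and mt-Nd6 stood at -0.44 (SE 0.159, adjusted p = 0.181).

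Other genes of the pathway were described by lists written from general knowledge, whose calls are to be read against the 5.38% of all genes that rose and the 5.54% that fell. In NPmut against control HSPCs, 0 of 8 further subunits and carriers were called, with a median of 0.08, among them Cox4i1 (log2 fold change 0.41, adjusted p = 0.169), Cycs (0.24) and Ndufab1 (-0.13). Of 47 assembly factors tested 1 rose, Sdhaf1, which helps to insert iron-sulfur clusters into Sdhb, from 13.3 ± 1.11 CPM (n = 3) in control to 20.8 ± 3.79 CPM (n = 4) in NPmut mice (log2 fold change 0.65, adjusted p = 0.0343). The complex I factor Ndufaf1 (-0.50, adjusted p = 0.0861) and the copper chaperone Sco2 (-0.96, adjusted p = 0.211) were not called, and the list median was -0.03. Of 25 genes for replication and expression of mitochondrial DNA 1 fell, Twnk, the replicative helicase, from 43.0 ± 2.47 to 30.3 ± 3.51 CPM (-0.51, adjusted p = 0.0204). The RNA-binding protein Fastkd2 (-0.52, adjusted p = 0.0573) and the mitochondrial RNA polymerase Polrmt (-0.30, adjusted p = 0.102) were not called, and the median was -0.13.

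Of 15 transcription factors and coactivators of nuclear OXPHOS genes 1 fell and was a DEG, Mycn, from 20.003 ± 1.36 CPM in control to 5.74 ± 4.46 CPM in NPmut mice (log2 fold change -1.80, adjusted p = 0.0159), and the coactivators Ncoa6 (-0.33, adjusted p = 0.207) and Ppargc1a (-0.999, adjusted p = 0.232, at 0.846 against 0.425 CPM) were not called. The list median was -0.13. Of 18 genes of the tricarboxylic acid cycle and pyruvate dehydrogenase 0 were called, with a median of 0.04, and 2 had an unadjusted p-value under 0.05. The first 3 by adjusted p-value were Dlat (-0.30, adjusted p = 0.0539), the pyruvate carrier Mpc2 (0.40, adjusted p = 0.148) and Pdha1 (0.24, adjusted p = 0.196).

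Glycolysis was the list with most calls: of 21 genes 4 rose and 2 fell, with a median of 0.25. Hk1, a hexokinase that binds mitochondria, fell from 323 ± 9.94 to 174 ± 23.4 CPM (log2 fold change -0.90, adjusted p = 0.000651), whereas the glucose transporter Slc2a1 rose from 11.3 ± 0.895 to 18.5 ± 1.94 CPM (0.72, adjusted p = 0.00653) and the pyruvate kinase Pkm from 257 ± 26.8 to 403 ± 78.5 CPM (0.65, adjusted p = 0.0198). The other calls, named after their values were seen, were rises of Hk2 (0.50, adjusted p = 0.0306) and Ldhb (1.25, adjusted p = 0.0458) and a fall of Pfkm (-0.55, adjusted p = 0.0362). Of 77 mitochondrial ribosomal protein genes 0 were called, with a median of 0.04, and 3 had an unadjusted p-value under 0.05, Mrps9, Mrpl52 and Mrpl48. Of 85 cytosolic ribosomal protein genes 4 rose, Rps6, Rps14, Rpl10a and Rpl36a-ps1, a share near the 5.38% of all genes, with a median of 0.27. Their median difference from the control mean was 0.06, 0.71, 0.18 and -0.05 in NPmut mice 1 to 4, by far the highest in mouse 2. Against control, p53mut and NrasG12D HSPCs had 0 calls in each of these lists.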

How the data were processed

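Per the labels, each of the 13 libraries was made with a stranded total RNA kit for low input (SMARTer Stranded Total RNA-Seq Pico Input) from Lin-cKit+ bone marrow cells of 1 mouse. The authors deposited 1 table of raw counts per gene, not normalized; the submitters' processing notes name STAR 2.6.1d, the GRCm38.p6 build, R 3.6.1 and DESeq2 1.26.0, and the counting program and its strand setting are not given in the sources used here. Depth was 12576174 to 29124022 counts per library.

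Differential expression was tested on the deposited counts with edgeR 4.0.16 (R 4.3.3): TMM factors, its default filter on low counts, and robust quasi-likelihood F-tests in 1 model of all 13 libraries, with Benjamini-Hochberg adjustment over the 17795 genes tested. DESeq2 1.42.0 was an alternative. RPKM used library totals and the exonic length of GENCODE M21, and differences per mouse used log2 CPM with a prior count of 2. Scripts were tested on simulated data. Members and lists were chosen with earlier results of these data known. The genes named were all 13 mitochondrial members, all DEGs, the 2 nuclear members of smallest adjusted p, the 1 of highest RPKM and the 1 of largest log2 fold change in NPmut against control HSPCs in each complex, the nuclear member of smallest adjusted p in each other comparison, all untested members, and the 3 genes of smallest adjusted p in each other list. Further members, such as Ndufa5, Atp5b, Cox6a1, Cox6b1, Cox6b2 and those called by DESeq2 alone, were chosen after their values were seen. Replicate numbers come from the labels. Control and p53mut mice of the same number deviated together weakly (correlations of 0.152 to 0.166 over genes in all 3 pairs). In the other pairs of groups the correlations ran from -0.113 to 0.294 and were not positive in all 3 pairs. Mouse 1 was the only male of both the control and the p53mut group by its Y-linked genes. The cause of these correlations was not tested. No source says whether mice shared a litter. The alternatives were other scalings and filters, fits of only the compared groups, replicate, sex or background-read terms, adding counts of nuclear copies, and leaving out each library.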

Additional observations from a re-analysis of the deposited data

Results flagged for a closer look

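In the NPmut group, 33 measures were examined for a mouse far from the other mice, the CPM of 30 members and 3 summed measures (the mitochondrial share of counts, the log2 ratio of the genomes and the nuclear sum). In 6 members and 0 of the summed measures 1 mouse stood apart, in that its gap to its nearest neighbor, divided by the range of the group, was above 0.829, the critical value for 4 samples. Chance gives about 1 in 20, and members measured in the same mice are not independent. NPmut mouse 2 stood above the others in mt-Nd3 (17.2 CPM), Ndufv3 (86.2 CPM), Ndufb11 (64.4 CPM) and Uqcrq (147 CPM). NPmut mouse 4 stood below the others in mt-Nd4 (393 CPM) and Cox6a2 (0.594 CPM).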

How the results depend on the processing

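Depth limits Cox6a2 (4 to 91 counts per library) and the low mitochondrial genes most. Members called higher in NPmut against control HSPCs numbered 2; they were 1 with library totals (2 lower), 5 with a filter of at least 1 count, 1 with at least 10 counts in every library, 0 with only the compared groups, 4 with background reads as a term (0 lower), and 0 to 4 with a library left out (1 to 2 lower). The 4 with background reads were Sdhb, Uqcrq, Atp5h and Atp5mpl, and Cox6a2, Cox7a2l and mt-Nd6 lost their calls there. DESeq2 called mt-Atp6 higher beside Cox6a2 and Cox7a2l. Against NrasG12D, where 0 were called higher, they were 6 by DESeq2, 13 with at least 1 count, 12 with background reads, and 0 to 8 with a library left out. Against p53mut, where 1 was called higher and 1 lower, higher calls were 2 by DESeq2, 0 with library totals, 4 with at least 1 count, 0 with only the compared groups (0 lower), 5 with background reads (0 lower, with mt-Atp6 and mt-Nd6 both lost), 0 with copies added, and 0 to 3 with a library left out (0 to 2 lower). Positive interaction calls were 1 with at least 1 count and 0 to 1 with a library left out. In NrasG12D against control, 1 member was lower with at least 1 count (mt-Nd4l) and 1 with only the compared groups (Ndufb9). The replicate block gave 7 higher calls against control, 28 against NrasG12D, 4 against p53mut and 1 for the interaction. In it NPmut mouse 4, the only mouse with its number, carries no weight. Only between control and p53mut mice were the correlations by number positive in all 3 pairs, and there the block called 0 members. The cause of these shifts was not tested.

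Library totals moved the median of all genes in NPmut against control from 0.01 to -0.11 and its calls from 958 higher and 986 lower to 636 and 1350. With background reads as a term the nuclear and mitochondrial medians were 0.69 and 0.51 in NPmut against control, 0.30 and 0.0031 in NrasG12D against control, and 0.53 and 0.42 in NPmut against p53mut. With a library left out, they ran from 0.061 to 0.38 and from 0.12 to 0.61 in NPmut against NrasG12D, the nuclear one from -0.075 to 0.25 against p53mut, and the mitochondrial interaction from 0.032 to 0.48. As a share of protein-coding counts, mitochondrial members were 1.37% in control, 1.42% in p53mut, 1.16% in NrasG12D and 1.31% in NPmut libraries, and the log2 ratio without complex II was 0.81 in control and 0.88 in p53mut. The sign of log2 fold changes in NPmut against control turned for Sdhc (-0.016) and Uqcr11 (-0.024) with library totals, for mt-Nd5 (0.0090), Sdha (0.038), Uqcr10 (0.050) and Ndufb9 (0.043) with at least 1 count, and for mt-Co2 (0.058) with copies added. In the replicate block it turned for mt-Co2 (0.039), mt-Co3 (0.26), mt-Nd5 (0.11), Sdha (0.042), Uqcr10 (0.11) and Ndufb9 (0.11), and with background reads for mt-Nd2 (0.19), mt-Co2 (0.60), mt-Nd4l (0.90), mt-Nd4 (0.13), mt-Nd5 (0.33), mt-Cytb (0.21), Sdha (0.27), Uqcr10 (0.96) and Ndufb9 (0.54). With a library left out, ranges that spanned 0 were -0.77 to 0.16 for mt-Co2, -0.33 to 0.17 for Uqcr10, -0.14 to 0.098 for mt-Nd5, -0.092 to 0.037 for Sdha, -0.24 to 0.11 for Ndufb9, -0.60 to 0.63 for mt-Co3, -0.066 to 0.19 for Sdhc, -0.087 to 0.28 for Cox8a, -0.12 to 0.20 for Uqcr11 and -0.050 to 0.53 for mt-Atp8.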
